A study of Mus musculus with 6 samples.

Results

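The 50 genes described here encode proteins of the centrosome, the centriole and the spindle pole. They were listed by symbol in 5 groups by role (centriole assembly; linker, appendages, satellites and cilium base; pericentriolar material and gamma-tubulin complex; augmin; mitotic kinases and spindle pole), and each symbol matched 1 of the 22380 gene identifiers in the expression tables. RNA came from 6 mouse embryonic stem cell (mESC) lines, 3 *Ctrl* and 3 *Tet iTKO*, each line derived from a different embryo. Both groups carried CreERT2, a Cre recombinase under the human ubiquitin C promoter that 4-hydroxytamoxifen activates, and a *Rosa26* reporter that makes H2B-EGFP once Cre has cut out its stop cassette. Only the *Tet iTKO* lines also carried floxed alleles of *Tet1*, *Tet2* and *Tet3*, the genes of the enzymes that oxidize 5-methylcytosine. All lines were grown in 2i medium on feeder fibroblasts, treated with 1 µM tamoxifen for 2.5 days, cultured for 4 more days and sorted at day 6.5 as living EGFP+ cells without the feeder marker Thy1.2. The *Ctrl* lines thus shared the drug, the recombinase and the reporter, and the comparison asked how the loss of all TET enzymes altered these transcripts.

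The centrosome is the main microtubule-organizing center of animal cells. It holds a pair of centrioles, which are copied once per cell cycle, within a pericentriolar material where ring complexes of gamma-tubulin start new microtubules. In mitosis the duplicated centrosomes form the poles of the spindle, augmin starts further microtubules along existing ones, and kinases such as Aurora A and Polo-like kinase 1 drive the maturation of the poles, so that errors in centrosome number or pole structure can misplace chromosomes.

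The values are normalized counts, that is, reads per gene divided by a size factor for the library and rounded. They summed to 4210784 to 4219665 per library in *Ctrl* and to 3964824 to 3996522 in *Tet iTKO* mESC, from an estimated 3.67 M to 5.1 M reads on genes. *Tet1* was at 682 to 716 normalized counts in *Ctrl* and at 753 to 895 in *Tet iTKO* mESC, which does not check the deletion, since whole-gene values include reads outside the floxed exons. Of 12 markers of pluripotent cells, 3 were higher in *Tet iTKO* mESC (*Esrrb*, *Klf4* and *Epcam*) in the limma test described below. A further 5 were lower (*Pou5f1*, *Nanog*, *Zfp42*, *Dppa5a* and *Fbxo15*), together 66.7%, beside 34.8% of all genes. *Dppa5a*, the highest of them, had 11011 to 11578 in *Ctrl* and 8136 to 8809 in *Tet iTKO* mESC. After the correction for GC content and length described further on, *Dppa5a* was instead higher (0.13, limma adjusted p = 0.00496). *Esrrb*, *Klf4*, *Nanog* and *Zfp42* then did not pass. With that correction 3 of the 12 markers were higher and 3 lower, or 50.0%, beside 25.8% of all genes. All 12 passed the filter on low values, and their sum was 31319 to 31883 in *Ctrl* and 27368 to 28242 in *Tet iTKO* mESC. Of 14 markers of feeder fibroblasts, 7 passed it, and 3 of these (*Col1a1*, *Col1a2* and *Col3a1*) were higher in *Tet iTKO* mESC. *Col1a1* had 150 to 181 in *Ctrl* and 281 to 349 in *Tet iTKO*, while the others tested did not pass (*Thy1*, *Acta2*, *Col5a1* and *Tagln*). The share was 42.9% of those tested, beside 34.8% of all genes, and 57.1% beside 25.8% after the correction. *Tagln* then passed as higher (1.05, limma adjusted p = 0.0321). Of the 7 below the filter, *Fbn1* was at 1 to 2 in *Ctrl* and at 6 to 15 in *Tet iTKO* mESC, *Dcn* at 2 to 15 and 1 to 6, *Lum* at 1 to 8 and 1 to 2, *Pdgfrb* at 0 to 9 and 2 to 4, and *Postn*, *Twist2* and *S100a4* at 0 to 4 in every library. The summed fibroblast markers ran from 362 to 388 in *Ctrl* and from 590 to 672 in *Tet iTKO* mESC, and their part in the differences given here was not tested.

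All 50 genes were transcribed above the filter used for testing, a mean of at least 10 normalized counts over the 6 libraries, and 6 of them had a mean under 50. Levels of different genes were compared per kb of transcript. On that scale *Aurka*, the gene of Aurora A, was the highest in *Ctrl* mESC at 778 ± 27.6 (SD, n = 3) normalized counts per kb, followed by *Plk1* at 557 ± 37.5, *Haus4* at 451 ± 22.9 and *Haus1* at 339 ± 18.4. The ranges of mean ± SD of these 4 genes did not touch, but those of the next ones, *Odf2* at 309 ± 8.65 and *Tacc3* at 299 ± 4.91, did. At the other end were *Cep290* at 1.34 ± 0.42 and *Nin* at 1.58 ± 0.95, a protein of the ciliary transition zone and one of the subdistal appendages, whose levels also could not be told apart. The top 4 genes thus encode mitotic kinases and augmin subunits, while the large coiled-coil scaffolds *Cep250*, *Cdk5rap2*, *Cep135* and *Cep152* lay between 5.72 and 8.9 per kb. The level of *Haus1*, and with it its rank, is uncertain, since part of its exon bases lie opposite the much higher *Atp5a1*. The plot of levels per kb sets both groups side by side.

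**Figure D1:**
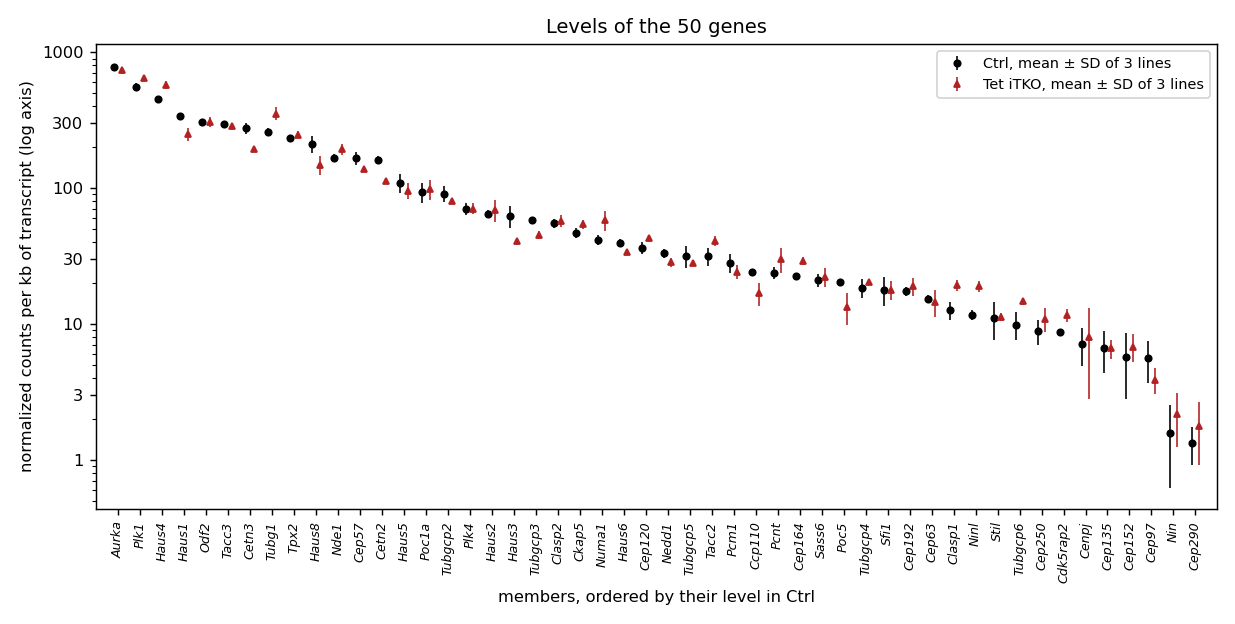
Levels of the 50 genes in normalized counts per kb of transcript (log axis), ordered by their level in *Ctrl* mESC. Circles (*Ctrl*) and triangles (*Tet iTKO*) are means of 3 lines and bars are SD, and levels run from 778 per kb for *Aurka* to 1.34 per kb for *Cep290* in *Ctrl*.

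Between the groups, 17 of the 50 genes passed the test (limma on log2(normalized count + 1), Benjamini-Hochberg adjusted p under 0.05), or 34.0%, against a background of 34.8% of the 10524 genes tested. Among them 8 were higher in *Tet iTKO* mESC (*Ninl*, *Clasp1*, *Tubgcp6*, *Numa1*, *Tubg1*, *Tacc2*, *Haus4* and *Plk1*), where 16.4% of all genes were, and 9 were lower (*Poc5*, *Haus3*, *Ccp110*, *Haus8*, *Cetn2*, *Cetn3*, *Haus1*, *Tubgcp3* and *Cep57*), where 18.4% of all genes were. The share of changed genes was therefore close to the background and does not set these genes apart. The changes were small, from 0.21 to 0.69 in size on the log2 scale, and none of those that passed reached 1 on that scale, as 6.25% of all genes did while passing the test. The median over the members was 0.07, against 0.01 over all genes, and their median size of change was 0.23, against 0.29. In 21 members the values of the groups did not overlap, or 42.0%, against 44.1% of all genes. With libraries rescaled to equal totals, which raised the median of all genes by 0.085, the counts were 14 higher and 6 lower, and with quantile normalization 11 and 8. These scalings moved the whole table too, with all genes higher at 2324 and all genes lower at 1428 with equal totals, and 1795 and 1761 with quantile normalization. In such bulk samples a lower level in every cell and a smaller share of cells expressing a gene cannot be told apart.

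**Figure D2:**
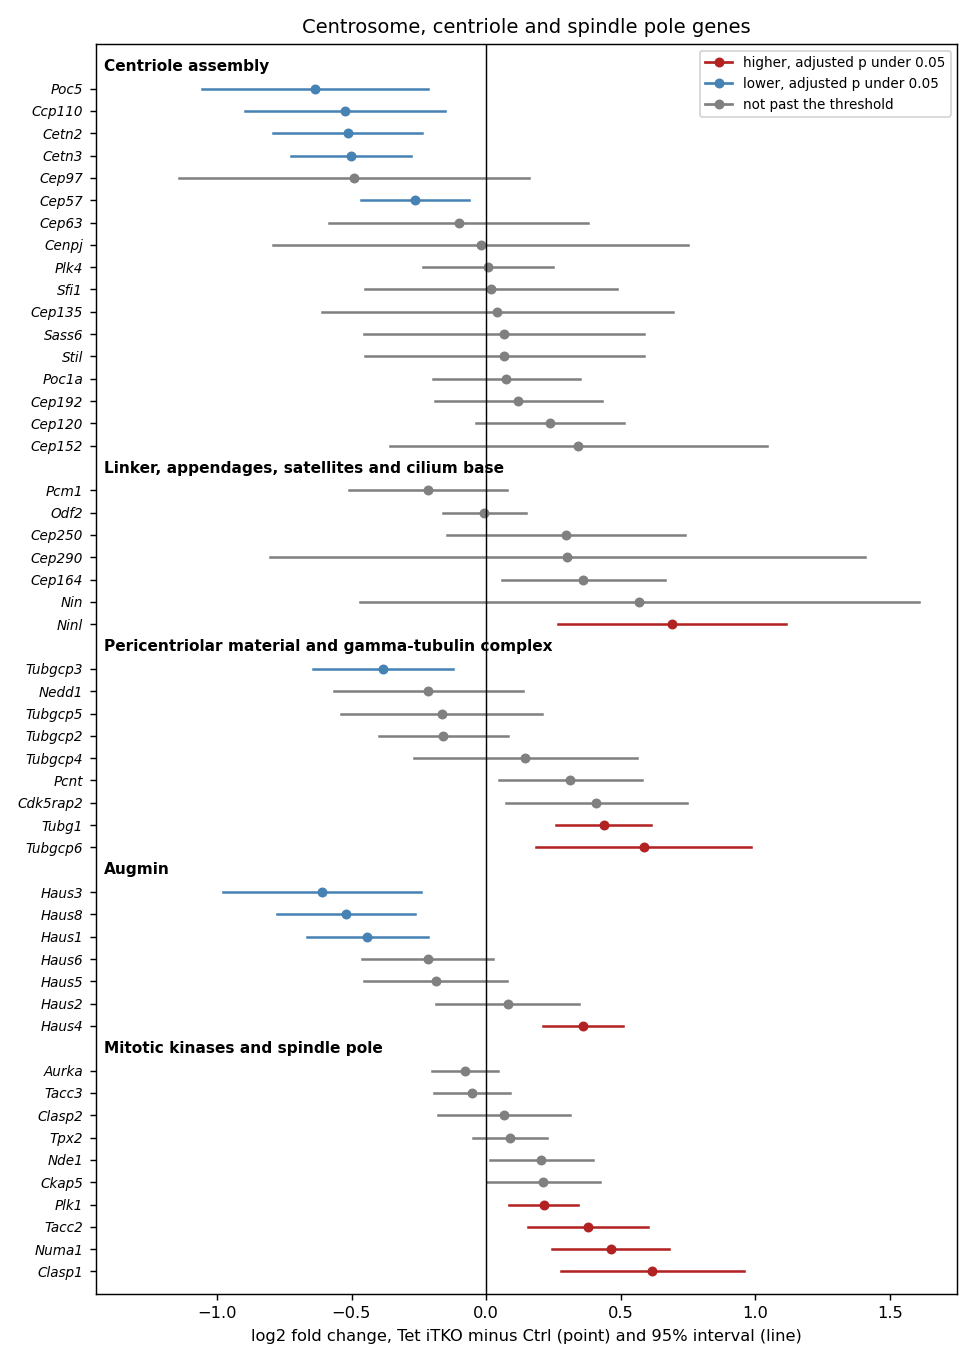
Log2 fold change (*Tet iTKO* minus *Ctrl*, horizontal axis) of each of the 50 genes with its 95% interval, grouped by role. The 8 genes in red and the 9 in blue passed the test as higher and lower, and the points of all 50 lie between -0.64 for *Poc5* and 0.69 for *Ninl*.

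The 17 genes of centriole assembly held 5 that fell (*Poc5*, *Ccp110*, *Cetn2*, *Cetn3* and *Cep57*) and none that rose, and their median change was 0.01. The share was 29.4%, beside the 34.8% of all genes, and 11.8% beside 25.8% after the correction described further on. No gene that starts centriole duplication was among the 5 that fell. *Plk4*, the kinase that starts centriole duplication, had 251, 265 and 219 normalized counts in *Ctrl*, against 256, 262 and 220 in *Tet iTKO* mESC, which is a log2 change of 0.01 with a 95% interval from -0.24 to 0.25. The cartwheel genes *Stil* and *Sass6* changed by 0.07 each, and *Cenpj*, which governs centriole length, by -0.02. The *Plk4* recruiters *Cep152* and *Cep192* changed by 0.34 and 0.12, and *Cep63*, *Cep135*, *Cep120*, *Poc1a* and *Sfi1* by -0.10, 0.04, 0.24, 0.08 and 0.02, with adjusted p between 0.180 and 0.978 over these 11 genes and *Cep97* (limma). *Sass6* shares 24.5% of its exon bases with *Gm42893* on the opposite strand and is uncertain to that extent. The interval of *Cep152* reached 1.04, so that for this gene a log2 change of 1 could not be told from none at this depth.

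*Cetn2* and *Cetn3* encode centrins, small calcium-binding proteins inside the distal centriole. *Cetn2* had 208, 220 and 195 normalized counts in *Ctrl*, against 141, 154 and 140 in *Tet iTKO* mESC. *Cetn3* had 309, 334 and 373 in *Ctrl*, against 236, 229 and 250 in *Tet iTKO* mESC. The lines did not overlap for either gene, and both fell, with log2 fold changes of -0.51 for *Cetn2* (SE 0.14, limma adjusted p = 0.00289) and -0.50 for *Cetn3* (SE 0.11, adjusted p = 0.000406). Both calls held in all 6 fits that left out 1 line. After correcting for GC and length as described further on, however, the changes were -0.11 and -0.04 and neither passed (adjusted p = 0.59 and 0.825). *Sfi1*, whose product binds centrins, had 51, 82 and 80 in *Ctrl*, against 58, 74 and 81 in *Tet iTKO* mESC, and the groups overlapped throughout.

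*Poc5* encodes a centrin-binding protein of the inner centriole scaffold, needed for full-length centrioles. Its values were 105, 112 and 102 in *Ctrl*, against 89, 68 and 52 in *Tet iTKO* mESC, with no overlap and a wide spread among the *Tet iTKO* lines. The change of -0.64 on the log2 scale (SE 0.21, adjusted p = 0.0154) was the largest fall among the 50 genes, and it was -0.71 after the correction (adjusted p = 0.00872). The call was lost without *Ctrl* replicate 2 (adjusted p = 0.0565) or *Tet iTKO* replicate 3 (adjusted p = 0.121). Of its exon bases, 25.7% are shared with *Ankdd1b* on the opposite strand, which had 0 to 2 normalized counts in every library. *Ccp110* encodes a cap protein of the distal centriole end that limits its growth and holds back cilium formation. It had 128, 121 and 119 normalized counts in *Ctrl*, against 105, 76 and 77 in *Tet iTKO* mESC, again without overlap. The change was -0.52 (SE 0.18, adjusted p = 0.0241), and -0.54 after the correction (adjusted p = 0.0232), but the test was passed in only 2 of the 6 fits that left out 1 line, with adjusted p from 0.0511 to 0.103 without *Ctrl* replicate 1 or 2 or *Tet iTKO* replicate 2 or 3. Its partner in the cap, *Cep97*, changed by -0.49 with an interval from -1.14 to 0.16 and did not pass (adjusted p = 0.248). The 100 bases before the RefSeq start of *Poc5* (chr13:96388194-96388293, plus strand, GRCm38.p6) and *Ccp110* (chr7:118712443-118712542, plus strand) are shown 5′ to 3′ because both genes were lower with and without the correction, with CG pairs, the sites at which mammalian DNA is methylated and TET enzymes act, in capitals.
Poc5: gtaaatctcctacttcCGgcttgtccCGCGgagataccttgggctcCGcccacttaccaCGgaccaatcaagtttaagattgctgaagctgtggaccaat
Ccp110: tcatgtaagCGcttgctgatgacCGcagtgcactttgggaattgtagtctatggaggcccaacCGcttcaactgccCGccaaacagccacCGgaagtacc

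Both stretches hold 5 CG pairs. *Cep57*, which anchors the pericentriolar material to the centriole, was the weakest of the falls. It had 363, 449 and 417 normalized counts in *Ctrl*, against 330, 337 and 353 in *Tet iTKO* mESC, which is a log2 change of -0.26 (SE 0.10, adjusted p = 0.0352). Although the groups did not overlap, it passed in only 1 of the 6 fits without a line, and without *Ctrl* replicate 2, *Ctrl* replicate 3, *Tet iTKO* replicate 1, *Tet iTKO* replicate 2 or *Tet iTKO* replicate 3 the adjusted p ran from 0.0503 to 0.19. After the correction the change was -0.04 (adjusted p = 0.824).

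Of the 7 genes of the linker, the appendages, the satellites and the cilium base, 1 rose and none fell. That is 14.3%, beside the 34.8% of all genes, and 0.0% beside 25.8% after the correction. *Ninl*, a ninein-like protein that binds gamma-tubulin complexes, had 54, 63 and 62 normalized counts in *Ctrl*, against 90, 94 and 107 in *Tet iTKO* mESC. Its lines did not overlap, and its rise of 0.69 (SE 0.21, adjusted p = 0.00884) was the largest among the members. The call was lost without *Tet iTKO* replicate 3 (adjusted p = 0.0546) and after the correction (0.44, adjusted p = 0.121). *Cep164*, which builds the distal appendages that dock cilia, had non-overlapping values with a change of 0.36 that just missed the threshold (adjusted p = 0.0566) and was 0.01 after the correction. *Cep250*, the linker between the centrioles, changed by 0.30, *Odf2* of the appendages by -0.01 and *Pcm1* of the centriolar satellites by -0.22. *Odf2* was the most precisely measured of these, with an interval from -0.16 to 0.15, whereas those of *Nin* and *Cep290* reached 1.61 and 1.41.

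In the pericentriolar material and the gamma-tubulin complex, 2 of 9 genes rose and 1 fell, or 33.3%, beside the 34.8% of all genes. After the correction 22.2% passed, beside 25.8%. *Tubg1*, the gamma-tubulin that cycling cells use to start microtubules, had 441, 471 and 499 normalized counts in *Ctrl*, against 576, 626 and 713 in *Tet iTKO* mESC. All *Tet iTKO* lines lay above all *Ctrl* lines, and *Tubg1* rose by 0.44 (SE 0.09, adjusted p = 0.000135), by 0.41 after the correction (adjusted p = 0.000188), and in all 6 fits without a line. Its near-identical paralog *Tubg2*, which is not among the 50, had 4, 6 and 4 in *Ctrl*, against 21, 13 and 14 in *Tet iTKO* mESC. It passed as higher (1.57, adjusted p = 0.0426), but not after the correction (adjusted p = 0.0559) and in only 1 fit that left out a line. Since reads were kept only where they aligned to 1 place, reads shared by both genes are missing from both, and their values are uncertain to that extent.

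Of the 5 subunits that bind gamma-tubulin, 1 rose and 1 fell, where 34.8% of all genes passed. *Tubgcp2* and *Tubgcp3* form the small complex with gamma-tubulin, and *Tubgcp4*, *Tubgcp5* and *Tubgcp6* complete the ring. *Tubgcp3* had 218, 220 and 232 normalized counts in *Ctrl*, against 172, 183 and 159 in *Tet iTKO* mESC, with no overlap. It fell, with a change of -0.38 (SE 0.13, adjusted p = 0.0182) and of -0.46 after the correction (adjusted p = 0.00541), although the call was lost without *Ctrl* replicate 3 (adjusted p = 0.0588) or *Tet iTKO* replicate 3 (adjusted p = 0.0787). *Tubgcp6*, whose product is a substrate of PLK4, had 66, 96 and 65 in *Ctrl*, against 105, 120 and 112 in *Tet iTKO* mESC. Its rise of 0.59 (SE 0.20, adjusted p = 0.0187) was 0.17 after the correction (adjusted p = 0.571), and it was not passed without *Ctrl* replicate 1 or 3 or *Tet iTKO* replicate 2 or 3 (adjusted p from 0.0533 to 0.0815). *Tubgcp2*, *Tubgcp4* and *Tubgcp5* changed by -0.16, 0.15 and -0.17, and *Nedd1*, which targets the ring to the centrosome, by -0.22, all short of the threshold. Of the exon bases of *Tubgcp4*, 25.4% lie opposite *Trp53bp1*, which had 92 to 142 normalized counts, so that its own value is uncertain. The 100 bases before the start of *Tubgcp3* (chr8:12672101-12672200, minus strand, GRCm38.p6) are shown for comparison, with CG pairs in capitals, since this gene was also lower with and without the correction.
Tubgcp3: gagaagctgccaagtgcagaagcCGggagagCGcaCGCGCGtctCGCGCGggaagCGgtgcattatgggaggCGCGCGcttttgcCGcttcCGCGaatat

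With 15 CG pairs, this stretch is richer in them than those of *Poc5* and *Ccp110*. The scaffolds of the pericentriolar material stood at the edge of the test. *Cdk5rap2* had a change of 0.41 without overlap (adjusted p = 0.0515), and *Pcnt*, which encodes pericentrin, one of 0.31 (adjusted p = 0.0605). *Pcnt* was at 317 and 309 in *Tet iTKO* replicates 1 and 2 but at 213 in replicate 3, within the *Ctrl* range of 200 to 245. Without *Tet iTKO* replicate 3 it passed, with a change of 0.50 (adjusted p = 0.00443), as it did without *Ctrl* replicate 3 (0.38, adjusted p = 0.0341). After the correction neither scaffold passed, with changes of 0.04 for *Cdk5rap2* and -0.21 for *Pcnt*.

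Augmin, the complex that starts microtubules along other microtubules, held 3 genes that fell and 1 that rose among its 7, or 57.1%, beside the 34.8% of all genes, and 28.6% beside 25.8% after the correction. *Haus1* had 356, 320 and 345 normalized counts in *Ctrl*, against 272, 218 and 264 in *Tet iTKO* mESC. Of its exon bases, 1.8% lie opposite *Atp5a1*, which had 11875 to 12762 normalized counts. The count of *Haus1*, its level per kb and its change are therefore uncertain. *Haus3* had 158, 116 and 117 in *Ctrl*, against 88, 86 and 79 in *Tet iTKO* mESC. *Haus8*, the subunit that binds microtubules, had 279, 288 and 360 in *Ctrl*, against 176, 243 and 228 in *Tet iTKO* mESC. No line of one group reached into the other for any of these 3 subunits. All 3 fell, with log2 fold changes of -0.44 for *Haus1* (SE 0.11, adjusted p = 0.00176), -0.61 for *Haus3* (SE 0.18, adjusted p = 0.00801) and -0.52 for *Haus8* (SE 0.13, adjusted p = 0.00126). Without *Ctrl* replicate 1, its highest line, *Haus3* no longer passed (-0.46, adjusted p = 0.0812). Only *Haus8* passed after the correction (-0.37, adjusted p = 0.0208), while *Haus1* was at -0.03 (adjusted p = 0.889) and *Haus3* at -0.24 (adjusted p = 0.356).

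*Haus4* moved against them. It had 675, 729 and 744 normalized counts in *Ctrl*, against 859, 982 and 915 in *Tet iTKO* mESC, every *Tet iTKO* line above every *Ctrl* line. The rise was 0.36 (SE 0.07, adjusted p = 0.000183) and 0.44 after the correction (adjusted p = 5.52e-06). *Haus2*, *Haus5* and *Haus6* changed by 0.08, -0.19 and -0.22 and did not pass, though *Haus6* did not overlap between groups, and 56.5% of the exon bases of *Haus5* are shared with *Gm21982* on the same strand, which makes its count uncertain. The remaining subunit of the complex, *Haus7*, was kept in a longer list of centrosome genes and was also lower, at 268, 233 and 222 in *Ctrl*, against 174, 159 and 183 in *Tet iTKO* mESC (-0.48, adjusted p = 0.0031, and -0.26 after the correction, adjusted p = 0.13). The stretches before *Haus8* (chr8:71272591-71272690, minus strand, GRCm38.p6) and *Haus4* (chr14:54554362-54554461, minus strand) are printed as the pair of augmin genes that changed in opposite directions with and without the correction, CG pairs in capitals.
Haus8: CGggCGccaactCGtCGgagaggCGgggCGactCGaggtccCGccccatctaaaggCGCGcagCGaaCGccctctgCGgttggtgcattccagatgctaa
Haus4: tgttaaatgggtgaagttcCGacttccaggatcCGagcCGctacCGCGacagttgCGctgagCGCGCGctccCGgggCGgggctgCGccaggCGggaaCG

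These stretches of 100 bases hold 13 CG pairs for *Haus8*, which fell, and 14 for *Haus4*, which rose. Their longer windows of 300 bases, described next, hold 37 for *Haus8* and 25 for *Haus4*. In windows of 300 bases around the start (250 before and 50 after), which RefSeq gave for 40 of the 50 genes, the median was 23 CG pairs over the members' 50 windows, against 21 over the windows of genes tested and 7 over all promoters. Members that rose had a median of 14 over 7 windows, those that fell 22 over 9, and those not called 24 over 34. The letters CCAAT, searched on both strands, were in 54.0% of the members' windows, against 38.3% for genes tested and 37.4% for all promoters. TTTGAA, the core of the CHR element of cell-cycle genes, was in 24.0%, against 11.6% and 17.9%, and *Aurka* and *Plk1* were among its carriers. TTCCCGC, an E2F-type motif, was in 20.0%, against 8.77% and 4.6%, and among its carriers were *Plk4*, *Stil*, *Haus3*, *Haus4* and *Tubgcp3*, which include genes of both directions and of none. TTCGAA was in 2.0%, against 2.16% and 1.56%, and TTTGGCGC in 0 of the 50 windows, against 1.02% and 0.514%. DNA methylation and factor binding at these windows were not analysed here.

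Of the 10 mitotic kinases and spindle pole genes, 4 rose and none fell, with a median change of 0.21. The share was 40.0%, beside the 34.8% of all genes. After the correction only 1 of the 10 passed (*Nde1*, as higher), where 25.8% of all genes did, and the median change was 0.04. *Numa1*, which focuses microtubules at the poles and recruits dynein, had 280, 294 and 328 normalized counts in *Ctrl*, against 366, 493 and 392 in *Tet iTKO* mESC. *Clasp1*, a stabilizer of microtubule plus ends at kinetochores, had 87, 117 and 95 in *Ctrl*, against 149, 141 and 168 in *Tet iTKO* mESC. *Tacc2*, of the transforming acidic coiled-coil family, had 243, 286 and 325 in *Ctrl*, against 341, 361 and 403 in *Tet iTKO* mESC. In each of these the groups were separate, and the rises were 0.46 for *Numa1* (SE 0.11, adjusted p = 0.000829), 0.62 for *Clasp1* (SE 0.17, adjusted p = 0.0036) and 0.38 for *Tacc2* (SE 0.11, adjusted p = 0.00673). Their transcripts are 7180, 7910 and 9029 bases long, and none passed after the correction: *Numa1* was at 0.03 (adjusted p = 0.892), *Clasp1* at 0.34 (adjusted p = 0.142) and *Tacc2*, with the sign turned, at -0.10 (adjusted p = 0.538). *Tacc2* also missed the threshold without *Ctrl* replicate 1 (adjusted p = 0.0673) or *Tet iTKO* replicate 3 (adjusted p = 0.0626).

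*Plk1*, the kinase that recruits gamma-tubulin complexes to maturing poles, had 1133, 1292 and 1250 normalized counts in *Ctrl*, against 1388, 1388 and 1482 in *Tet iTKO* mESC. The groups did not overlap, but the rise of 0.21 (SE 0.06, adjusted p = 0.00731) was the smallest of the 17, and it missed the threshold without *Ctrl* replicate 1 (adjusted p = 0.0595), without *Tet iTKO* replicate 3 (adjusted p = 0.0548) or after the correction (0.15, adjusted p = 0.056). Its companion kinase *Aurka* changed by -0.08, with an interval from -0.20 to 0.04, and *Tpx2*, the activator of Aurora A, by 0.09, with an interval from -0.05 to 0.23. *Tacc3* and *Ckap5*, a scaffold of kinetochore fibers and the microtubule polymerase that it brings to the spindle, changed by -0.05 and 0.21, and *Clasp2* by 0.07. *Nde1*, a dynein regulator, changed by 0.20 without overlap (adjusted p = 0.0909) and was the only member to pass with the correction alone (0.27, adjusted p = 0.0277). Beside these, 24 other G2 and M phase genes held 4 that rose and 7 that fell, or 45.8%, beside the 34.8% of all genes. After the correction 41.7% of them passed, beside 25.8%. Their sum was 19954 to 20993 in *Ctrl* and 18369 to 18554 in *Tet iTKO* mESC. It was lower in every *Tet iTKO* line, and the total of all genes was lower too. The sizes of these falls were not compared. Of 18 G1 and S phase genes, 4 rose and 7 fell, or 61.1%, beside 34.8% of all genes, and 61.1% beside 25.8% after the correction. The part of cell-cycle phase in the members' values was not tested.

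**Figure D3:**
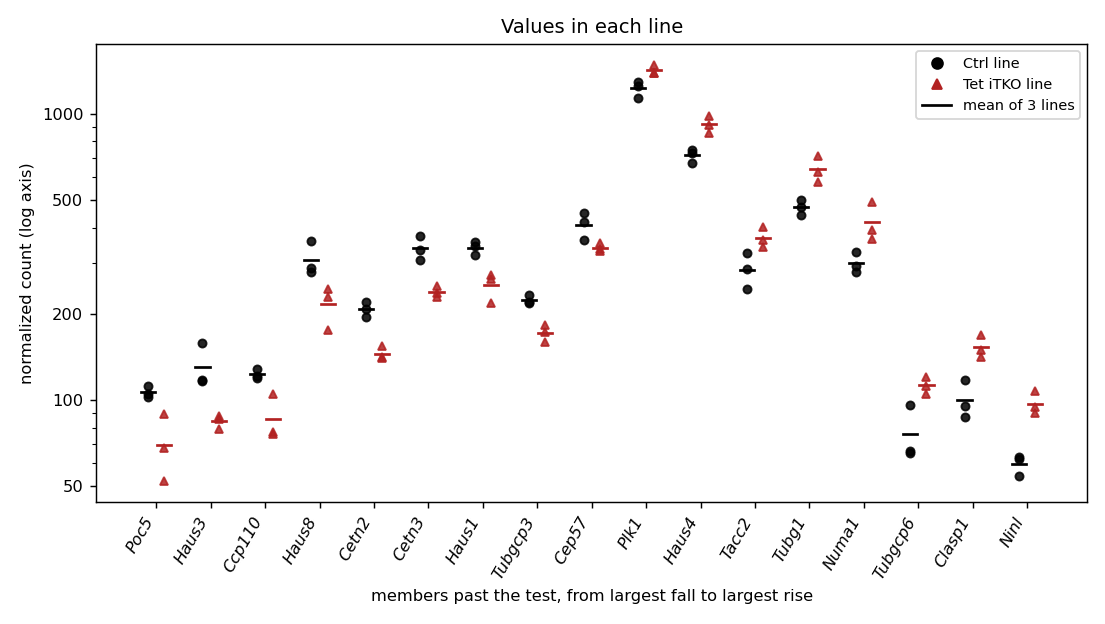
Normalized counts (log axis) of the 17 genes that passed the test, one point per line, with *Ctrl* as circles, *Tet iTKO* as triangles and the mean of 3 lines as a bar. From *Poc5* to *Cep57* every triangle lies below every circle of the gene, and from *Plk1* to *Ninl* every triangle lies above.

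The direction of change went with transcript composition. The 8 members that rose had a median GC content of 54.9% and a median length of 6136 bases, and the 9 that fell had 44.5% and 2073 bases. Over all 50 genes, Spearman's rho of the log2 fold change was 0.49 with GC content and 0.48 with length, and over 10457 genes tested it was 0.25 and 0.32, as a description across genes that share the same 6 libraries. The log2 values of each library were therefore corrected for a smooth trend with GC content and length and tested again. With this correction 3 members were higher (*Tubg1*, *Haus4* and *Nde1*), against a background of 12.5%, and 4 were lower (*Poc5*, *Ccp110*, *Tubgcp3* and *Haus8*), against 13.3%, together 14.0% of the members where 25.8% of all genes passed. Only 6 members passed in the same direction with and without it, against 20.2% of all genes. The median change of the members was then -0.01. The part of composition in the other 11 calls was not tested.

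**Figure D4:**
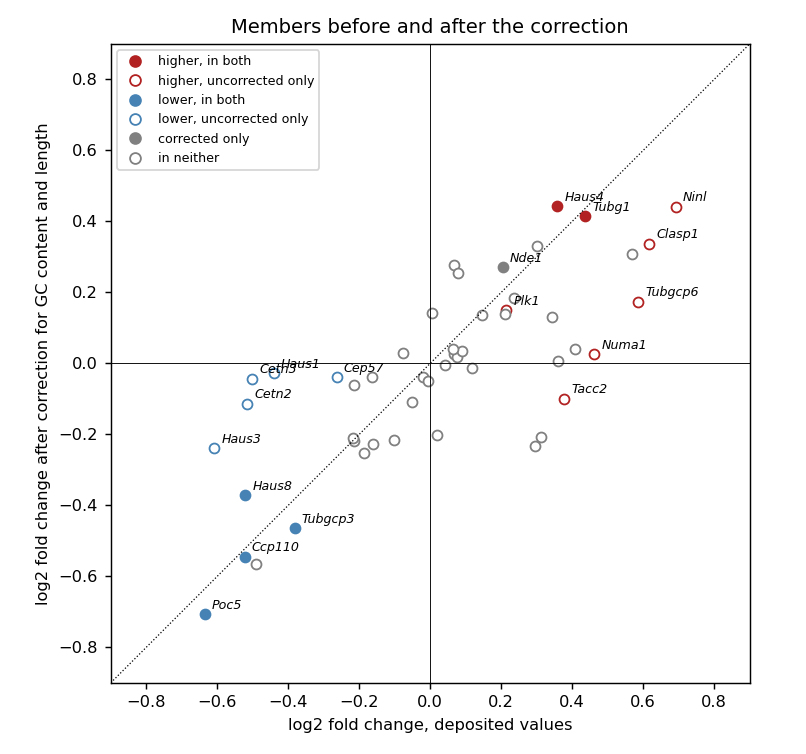
Log2 fold change (*Tet iTKO* minus *Ctrl*) of the 50 genes before (horizontal) and after (vertical) the GC and length correction, with the dotted line marking equal values. Filled points passed the test after the correction. Of the members that passed before it, *Numa1*, *Haus1*, *Cep57* and *Cetn3* lie closest to 0 on the vertical axis.

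Under every alternative tried, *Tubg1* and *Haus4* kept their rises. In all, 8 of the 17 calls were held in all 6 fits that left out 1 line (*Cetn2*, *Cetn3*, *Tubg1*, *Haus1*, *Haus4*, *Haus8*, *Numa1* and *Clasp1*), and 9 were lost in at least 1. Without *Tet iTKO* replicate 3 only 9 of the 17 held and the median of the members was 0.01. Without the trend in eBayes the calls of *Cep57*, *Poc5*, *Ccp110*, *Tubgcp6*, *Haus8*, *Plk1*, *Numa1* and *Tacc2* were lost, with equal library totals those of *Cep57*, *Ccp110* and *Tubgcp3*, and without a filter those of *Cep57*, *Poc5* and *Tubgcp6*. Equal totals added *Cep164*, *Pcnt*, *Cdk5rap2*, *Tpx2*, *Nde1* and *Ckap5*, all higher in *Tet iTKO* mESC. Among the 33 genes that did not pass, the 95% interval stayed within 0.5 on either side of no change for 15 and reached 1 for 4.

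A longer list of 66 further centrosome genes, of which 62 could be tested, held 5 that rose and 10 that fell, or 24.2%, where 34.8% of all genes passed, and 9.68% where 25.8% did after the correction. The largest rises with a mean of at least 50 were those of *Cntrob*, which encodes centrobin of the daughter centriole, *Crocc*, which encodes the rootlet protein rootletin, and *Ssx2ip*, of the centriolar satellites. *Cntrob* went from 65, 51 and 89 normalized counts in *Ctrl* to 124, 149 and 143 in *Tet iTKO* mESC, a change of 1.04 (adjusted p = 7.33e-05) that was 0.82 after the correction (adjusted p = 0.00158). *Ssx2ip* rose by 0.59 (adjusted p = 0.00174), and by 0.64 after the correction. *Crocc* rose by 0.68 (adjusted p = 0.0178) but was at -0.02 after the correction, and it did not pass without *Ctrl* replicate 2 (0.37, adjusted p = 0.182) or without *Tet iTKO* replicate 2 or 3 (adjusted p = 0.0687 and 0.0663). The largest falls above the same mean were those of *Cep44*, *Ppp1r35* and *Mzt2*. *Cep44*, which acts with *Poc1b* and *Ppp1r35* in turning new centrioles into centrosomes, went from 85, 73 and 111 to 49, 52 and 37, a change of -0.94 (adjusted p = 0.00199) that was -0.69 after the correction (adjusted p = 0.0291). *Ppp1r35* went from 297, 330 and 336 to 191, 222 and 221, a change of -0.60 (adjusted p = 6.72e-05) that was -0.53 after the correction (adjusted p = 0.000304). The groups were separate for both. *Mzt2*, a small partner of the gamma-tubulin ring, fell (-0.49, adjusted p = 0.0494) and did not pass after the correction (-0.23, adjusted p = 0.421) or without *Ctrl* replicate 1 or 3 or *Tet iTKO* replicate 1 or 3 (adjusted p from 0.108 to 0.176), while its relative *Mzt1* fell too (-0.44, adjusted p = 0.00259) and was at -0.10 after the correction.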

How the data were processed

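RNA of 6 mESC lines, 3 *Ctrl* and 3 *Tet iTKO*, was sequenced from Smart-Seq2 libraries with paired reads of 50 bases. The authors used STAR, kept reads that aligned to 1 place, counted genes by HTSeq 0.7.1 under its strand-specific option although Smart-Seq2 does not mark strand, and divided the counts by DESeq2 1.26.0 size factors. Their processing notes name the build mm9. These normalized counts were rounded to whole numbers before they were deposited, so their unit is given as score and not as counts. Depth was estimated from gaps that rounding leaves among the whole numbers, and squared differences between lines of a group were 2.75 to 3.39 times those from counting noise alone.

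Symbols, transcript lengths and GC contents came from GENCODE M21 on GRCm38 for 20775 of 22380 identifiers, using 1 principal or longest coding transcript per gene. The test was the two-sided one of limma 3.58.1 (lmFit, eBayes with a trend, R 4.3.3) on log2(normalized count + 1). It covered the 10524 genes whose mean reached 10, over which p-values were adjusted by Benjamini-Hochberg. Fold changes on this scale understate those of low genes. The correction subtracted, per library, a robust loess (span 0.3) of deviations from the gene mean on GC content and log2 length. Both fits were tested on simulated data. Other pseudocounts, filters, scalings, eBayes without the trend, a replicate block and fits without each line were the alternatives.

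Values in each library are given for members with an adjusted p under 0.05 and a change of at least 0.3, and the member with the lowest p per role. From the longer list the 3 largest rises and 3 largest falls are named, among genes with an adjusted p under 0.05 and a mean of at least 50. *Plk4*, *Sfi1*, *Cep57*, *Plk1*, *Pcnt*, *Haus7*, *Mzt1* and *Tubg2* were added after their values were seen. The members and lists were chosen with earlier results of these data known. Python 3.11.15, pandas 2.3.3, NumPy 2.4.6, SciPy 1.17.1 and matplotlib 3.10.9 were used.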

Additional observations from a re-analysis of the deposited data

How the results depend on the processing

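Pseudocounts of 0.5 and 4, a mean of at least 50 and rescaling by trimmed means of M values kept all 17 calls among the members. Quantile normalization kept 16, no filter 14, equal library totals 14 and eBayes without the trend 9. The members higher and lower were 14 and 6 with equal totals (median change 0.15), 3 and 4 with the correction for GC content and length (median -0.0087) and 4 and 4 with the correction and the replicate block (median -0.0087). Without the trend, members lower were 5, all genes higher 1075 and all genes lower 1217. Leaving out 1 line gave 5 to 8 members higher, 5 to 8 lower and a median log2 fold change of members from 0.0141 to 0.0719. In the longer list, genes higher and lower were 3 and 6 without a filter, 3 and 5 without the trend, 3 and 3 with the correction, with or without the replicate block, and 8 higher with equal totals. There, leaving out 1 line gave 3 to 4 higher and 7 to 8 lower. *Tacc2* turned to -0.10 and *Crocc* to -0.0183 with the correction, with or without the replicate block. The cause of these changes was not tested.

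The lines came from different embryos, and the labels do not say that replicate numbers pair them. The paper describes 3 independent experiments, and whether same-numbered lines shared one is not stated. Deviations of same-numbered lines correlated at -0.005 to 0.001, and with a replicate block alone 8 members were higher and 9 lower, the same 17 genes. Depth limits the scarce members most. Reads copied by PCR carry no molecular identifiers here, so depth covers counting error only. The p-values rest on the spread between 3 lines per group, which eBayes moderates with a variance trend over all genes. Without that trend 9 of the 17 calls held.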
